A study of Mus musculus with 4 samples.

Results

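The genes described here are 10 genes tied to feedback on the ERK pathway: the phosphatase genes Dusp1, Dusp2, Dusp4, Dusp5 and Dusp6, the Sprouty genes Spry2 and Spry4, the Spred genes Spred1 and Spred2, and Etv4. They were chosen by name, as the probe sets annotated with exactly 1 gene symbol on that list, and 10 of 10 were found among 19938 named genes, through 11 probe sets. The list was drawn up with earlier results of these data known. Shares of members called above those of all genes are therefore no independent support. Expression was measured in mouse embryonic fibroblasts of C57BL/6 background, prepared from an embryo at E13.5, that lack BAX and BAK, the effectors of mitochondrial apoptosis, and were transformed with SV40. All 4 groups share that genotype and that transformation, and SV40 large T antigen is known to bind p53 and the retinoblastoma protein. The groups are cells transduced with a retrovirus for GFP, the control, and mock-treated; the same cells with etoposide for 6 h; cells transduced with a retrovirus for p63, a relative of p53 that binds DNA, and mock-treated; and those cells with etoposide for 6 h. Etoposide traps topoisomerase II on cut DNA. Its dose is given as 10 µg/mL in the treatment protocol and as 10 µg per µL in the sample characteristics. Each group is 1 array, and neither the isoform of p63 nor whether a line is a clone is stated in the labels. Readings of a gene are listed in 1 order throughout: GFP mock, GFP etoposide, p63 mock, p63 etoposide.

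ERK is the last kinase of the RAS, RAF, MEK and ERK cascade, which carries growth factor signals from receptors at the membrane to transcription in the nucleus. Among the genes that ERK switches on are its own brakes. The DUSP genes listed here encode dual-specificity phosphatases that take the activating phosphates off MAP kinases: DUSP5 and DUSP6 act on ERK in the nucleus and the cytoplasm, and DUSP1, DUSP2 and DUSP4 are nuclear enzymes with wider substrates that include JNK or p38. Sprouty and Spred proteins act further up, between receptor and RAF, and Spred proteins bring the RAS inactivator neurofibromin to the membrane. Etv4 is no brake but an ETS transcription factor whose gene is switched on by FGF and ERK signalling.

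Values are the deposited RMA signals in log2 units, where 1 unit stands for 2-fold. A gene was kept where it reached 5.87, the median of all values of named probe sets, on at least 1 array, which left 10698 genes. Of the 10 members 8 were kept, and Dusp4 and Spry4 were below that brightness on all 4 arrays. With 1 array per group there is no replicate check, so differences carry no error and no test, and a gene counts as called at a difference of at least 1 in size. The precision is limited by the number of arrays. In RNA from whole cultures, fewer cells that express a gene and less RNA per cell cannot be told apart.

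The median over the genes kept lay between 7.48 and 7.69 on the 4 arrays, lowest in mock-treated p63 cells. On that array 78 genes stood at least 1 from each other array while the others lay within 0.5 of one another, against 1 to 22 on the others, and 0 of the 8 members kept were among them. Trp63 read 4.87, 5.59, 8.75 and 9.29, so the p63 arrays carried the higher signal. Of 10 fibroblast and mesenchyme markers 9 were kept, with Col1a1 between 12.2 and 12.4. None of the 6 endothelial markers was kept, and of 7 haematopoietic markers only Cd68. Of 7 simple epithelial markers Krt8 and Krt19 were kept, and Krt19 read 6.66, 7.48, 10.2 and 10.5, while Epcam and Cdh1 stayed below the filter on all arrays. The summed linear signal of the 7 epithelial markers was 303, 424, 1415 and 1701. Krt19 makes up most of that sum in p63 cells, and Krt8 read 5.97, 6.22, 6.98 and 5.93. The part of these markers in the results below was not tested.

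**Figure D1:**
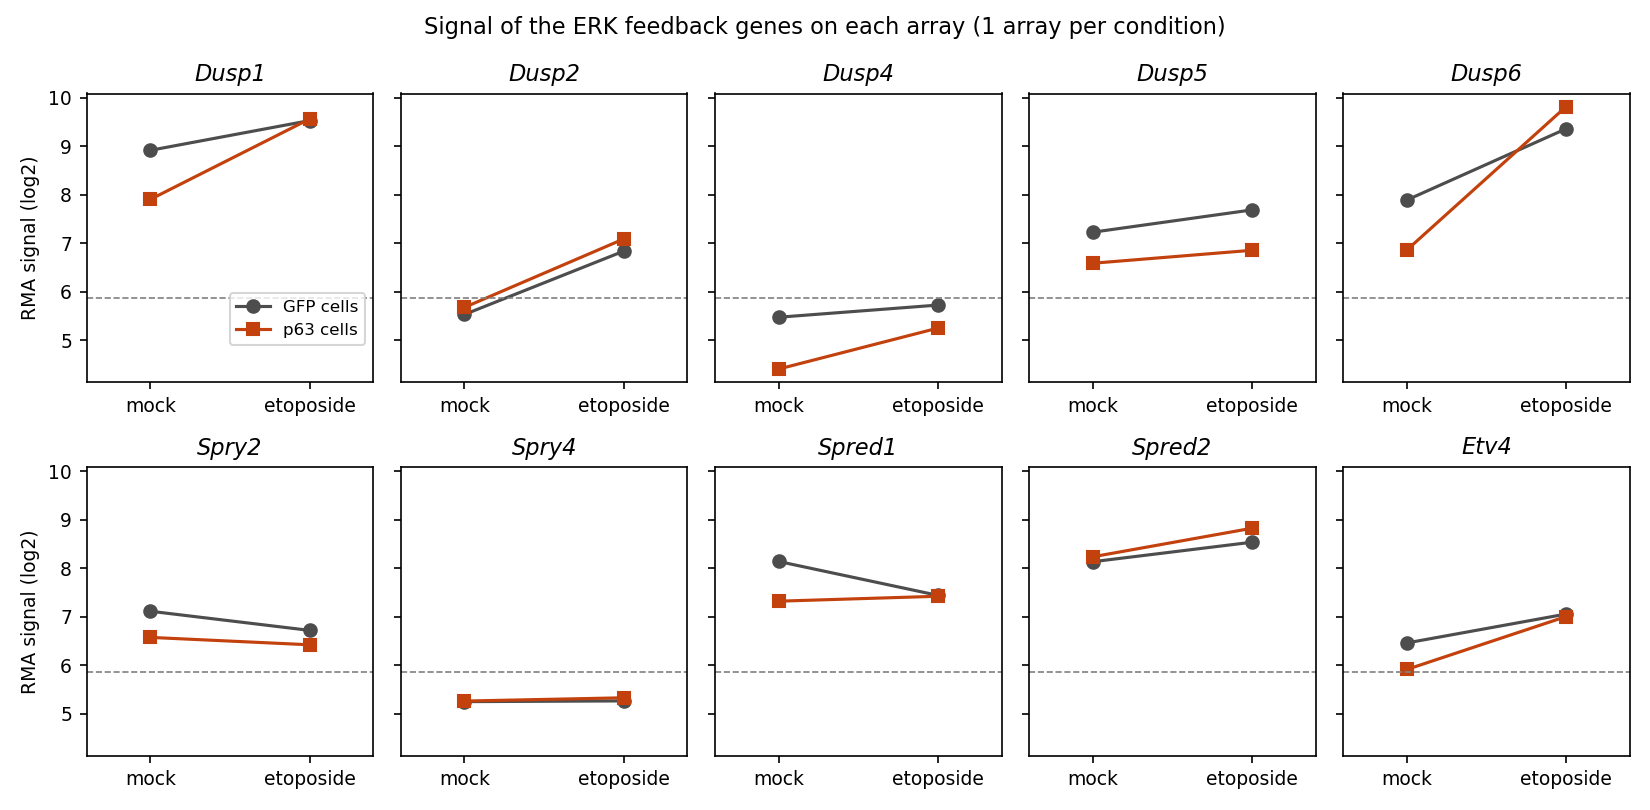
RMA signal (log2, y axis) of the 10 ERK feedback genes on the 4 arrays, with mock and etoposide on the x axis, grey circles for GFP cells and orange squares for p63 cells; each point is 1 array and the dashed line is the brightness filter of 5.87. Dusp6 spans the widest range, from 6.86 in mock-treated to 9.82 in etoposide-treated p63 cells, and Spry4 and Dusp4 stay below the dashed line.

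The first comparison, etoposide against mock, asks how these brakes stand after DNA damage. Dusp6 and Dusp2 were higher by at least 1 in both lines, Dusp1 and Etv4 reached that size with p63 but not with GFP, and no member was lower by 1 in either line. Of the 8 members kept, 2 were called higher and 0 lower in GFP cells, where 3.52% and 2.12% of all genes kept were. In p63 cells 4 were called higher and 0 lower, against 6.28% and 1.33%. In both lines 2 of 8 members were called higher, against 2.57% of all genes kept, and 0 lower, against 0.608%. Dusp2, 1 of these 2, passed the filter through its etoposide arrays alone. With its dim mock readings raised to the filter it stood at 0.97 in GFP cells and was not called there. Differences above 0 in both lines were seen in 6 of 8 members, all but Spry2 and Spred1, and in 31.8% of all genes kept. The members' median difference was 0.53 in GFP cells, where the median of all genes kept was -0.08, and 0.84 in p63 cells, where it was 0.10. On 5 of 8 members (Dusp1, Dusp2, Dusp6, Spred2 and Etv4) both etoposide arrays lay above both mock arrays, an order that 23.8% of all genes kept showed. For Spred2 this holds on its brighter probe set alone. The other read 7.16, 7.41, 7.53 and 7.71, with etoposide-treated GFP cells below mock-treated p63 cells.

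Dusp6 encodes the cytoplasmic phosphatase that is specific for ERK. It read 7.89, 9.36, 6.86 and 9.82. The array of mock-treated p63 cells was the lowest and that of etoposide-treated p63 cells the highest, and the mock and etoposide readings did not overlap. The etoposide difference was 1.47 in GFP cells, a 2.77-fold change that 131 of 10698 genes reached or passed. In p63 cells it was 2.96, or 7.78-fold, and 3 genes stood that high, Dusp6 with Snrpg, a subunit of the spliceosome's core, and Cxcl10, a chemokine, both named after their values were seen. Both differences were called under each of 8 other settings, at 1.35 to 1.62 and 2.76 to 2.96.

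Dusp2 encodes a nuclear phosphatase that is known as an early gene of stimulated lymphocytes. It read 5.53, 6.84, 5.68 and 7.09, with both mock readings below the filter. The etoposide readings lay above the mock readings in both lines, and the lines lay close together under either treatment. GFP cells differed by 1.31 and p63 cells by 1.41. With the dim mock readings raised to the filter they were 0.97 and 1.22, that is at least 1.96-fold and at least 2.33-fold, so GFP cells give no call at that bound. The gene passed the filter through its etoposide arrays alone.

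Dusp1 encodes a nuclear phosphatase that favours p38 and JNK as well as ERK and is itself an immediate early gene. It read 8.92, 9.53, 7.91 and 9.57. The lines met after etoposide and stood apart under mock treatment. The etoposide difference was 0.61 in GFP cells, under the threshold, and 1.66, or 3.16-fold, in p63 cells, a size that 1.31% of all genes kept reached. Dusp5, the nuclear phosphatase of ERK, read 7.23, 7.69, 6.59 and 6.86. Its etoposide differences of 0.46 and 0.27 were not called, and under each treatment the GFP reading stood above that of p63 cells. Dusp4, a nuclear phosphatase of ERK and JNK, read 5.47, 5.72, 4.40 and 5.25. All 4 readings are below the filter, so they have no order here and no fold is given.

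The stretches of DNA just before the start sites of Dusp6 and Dusp2, called in both lines, and of Dusp1, called in p63 cells, are printed to show what these genes carry where transcription begins. They are the 250 bases before the start, 5′ to 3′ on the gene's strand, from RefSeq on GRCm38.p6, at chr10:99262981-99263230 (plus strand) for Dusp6, chr2:127335909-127336158 (plus strand) for Dusp2 and chr17:26508473-26508722 (minus strand) for Dusp1. Capitals mark a cAMP response element or its shorter core TGACG, an AP-1 site, a CArG box or an ETS core.
Dusp6: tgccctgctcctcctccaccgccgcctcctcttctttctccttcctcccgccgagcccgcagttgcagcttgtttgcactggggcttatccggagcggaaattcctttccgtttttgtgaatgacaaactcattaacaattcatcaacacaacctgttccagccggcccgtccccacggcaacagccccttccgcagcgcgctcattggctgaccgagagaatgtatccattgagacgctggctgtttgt
Dusp2: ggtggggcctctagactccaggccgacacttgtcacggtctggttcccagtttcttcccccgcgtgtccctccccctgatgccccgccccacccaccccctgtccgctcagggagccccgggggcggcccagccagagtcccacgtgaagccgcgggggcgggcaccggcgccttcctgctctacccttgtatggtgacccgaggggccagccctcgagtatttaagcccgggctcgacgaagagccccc
Dusp1: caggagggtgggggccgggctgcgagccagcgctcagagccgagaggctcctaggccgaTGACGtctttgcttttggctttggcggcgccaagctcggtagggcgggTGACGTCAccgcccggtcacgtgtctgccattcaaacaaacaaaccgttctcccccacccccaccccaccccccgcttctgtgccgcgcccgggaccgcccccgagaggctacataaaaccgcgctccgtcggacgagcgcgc

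The Dusp1 stretch held the palindromic cAMP response element TGACGTCA at 143 to 136 bases before the start, and a further copy of its shorter core, TGACG, at 191 to 187 bases before it. The full element was found in 1.55% of all 32851 promoter stretches of this length and the shorter core, which overlaps it, in 17.8%, both strands searched. Those of Dusp6 and Dusp2 held none of the motifs searched. Promoters were found in the RefSeq table for 7 of the 10 members. Among these 7 the AP-1 letters TGANTCA (6.75% of all stretches), the ETS core CCGGAA (12.0%) and the decamer of the p53 element (7.13%) had 0 matches, which says only that these letters are not in this window. The TGACG core was in 3 of the 7, Dusp1, Dusp5 and Spred2, the last at 51 to 47 bases before the start. Dusp5 (chr19:53528895-53529144, plus strand) held 2 abutting CArG boxes, the core of the serum response element, at 82 to 73 and 72 to 63 bases before the start, a motif found in 1.47% of stretches, and a TGACG core on the opposite strand at 55 to 51. It is shown because it was the only 1 of the 7 with a CArG box.
Dusp5: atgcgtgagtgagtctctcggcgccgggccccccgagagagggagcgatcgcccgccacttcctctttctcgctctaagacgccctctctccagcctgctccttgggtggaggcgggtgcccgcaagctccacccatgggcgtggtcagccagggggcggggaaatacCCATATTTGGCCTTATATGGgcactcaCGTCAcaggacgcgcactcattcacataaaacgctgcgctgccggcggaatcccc

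**Figure D2:**
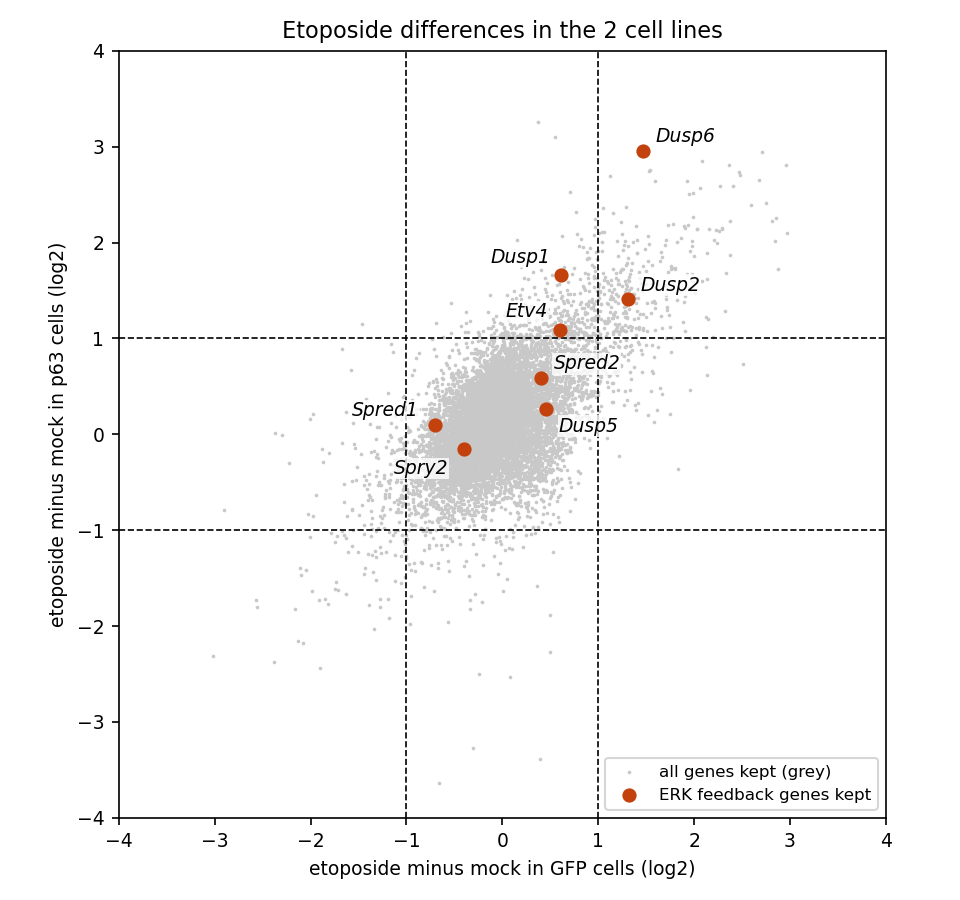
Etoposide minus mock (log2) in GFP cells on the x axis and in p63 cells on the y axis, 1 point per gene; grey points are the 10698 genes kept, orange points the 8 ERK feedback genes kept, and dashed lines mark 1 and -1. Dusp6 (1.47 and 2.96) and Dusp2 (1.31 and 1.41) lie beyond 1 on both axes, and Spry2 lies below 0 on both.

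The Sprouty and Spred genes, the brakes that act above RAF, were not called after etoposide in either line. Spry2, an inhibitor of receptor tyrosine kinase signalling, read 7.11, 6.72, 6.57 and 6.42, with differences of -0.39 and -0.15. Both p63 readings lay below both GFP readings, an order whose share among all genes kept was not counted. Spry4, its relative, stayed between 5.25 and 5.33 on the 4 arrays, all below the filter. Spred1, the gene affected in Legius syndrome, read 8.14, 7.44, 7.32 and 7.42. Mock-treated GFP cells stood above the other arrays, which lay close together. Its etoposide differences were -0.70 and 0.10, neither called, and the second takes the opposite sign under a different scaling (-0.09 with arrays centred on the genes kept, -0.02 after cyclic loess). Spred2, its relative, read 8.14, 8.54, 8.24 and 8.83, with differences of 0.40 and 0.59. Its other probe set gave 0.25 and 0.19.

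Etv4, the transcription factor, read 6.46, 7.06, 5.91 and 7.00. The etoposide arrays lay above the mock arrays in both lines. GFP cells differed by 0.60 and p63 cells by 1.09, and the second fell short of the threshold, at 0.89, with arrays centred on the median of the genes kept.

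The second comparison, p63 against GFP, sets the lines against each other under each treatment, on the same 4 arrays as the etoposide comparison. In mock-treated cells Dusp1 and Dusp6 were lower in p63 cells by at least 1 and no member was higher, so 2 of 8 members were called lower and 0 higher, against 3.76% and 2.42% of all genes kept. In etoposide-treated cells 0 of 8 members were called, where 1.38% of all genes kept were higher and 0.514% lower. Under both treatments together 0 members were called, against 0.925% higher and 0.486% lower. The members' median difference was -0.59 under mock treatment and 0.01 after etoposide, against -0.14 and 0.02 over all genes kept, and the members' value after etoposide turns to -0.03 after cyclic loess. With arrays centred on the genes kept the mock medians were -0.38 for the members and 0.07 for all genes. Mock-treated p63 cells gave the lowest of the 4 readings for 5 of 8 members, Dusp1, Dusp5, Dusp6, Spred1 and Etv4, and for 40.4% of all genes kept.

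Dusp6 was at -1.03 under mock treatment and 0.46 after etoposide, and Dusp1 at -1.01 and 0.03, the last value taking either sign over 3 other scalings (-0.05 to 0.06). A value of at most -1 under mock treatment and above 0 after etoposide was seen in 0.542% of all genes kept, and 0.757% had at least 1 in size with the opposite sign after etoposide. The mock differences of both genes sit at the threshold: they were -0.80 for Dusp6 and -0.78 for Dusp1 after cyclic loess, and -0.82 and -0.80 with arrays centred on the genes kept, so neither call holds there, although both stay negative. Spred1 followed at -0.82, with -0.02 after etoposide. Dusp5 had both p63 readings below both GFP readings, at -0.64 under mock treatment and -0.83 after etoposide. Neither value was called, although 0.78% of all genes kept stood as low as Dusp5 in etoposide-treated cells. Spry2 had the same split by virus, with -0.54 and -0.30. The share of all genes kept with such a split was not counted, so it cannot be read as particular to Dusp5 and Spry2. Etv4 stood at -0.55 and -0.05, and Spred2 at 0.10 and 0.29 (0.36 and 0.30 on its other probe set). Dusp2 stood at 0.25 after etoposide, and its mock readings, both below the filter, have no order (0.15 as deposited, 0.00 once raised).

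**Figure D3:**
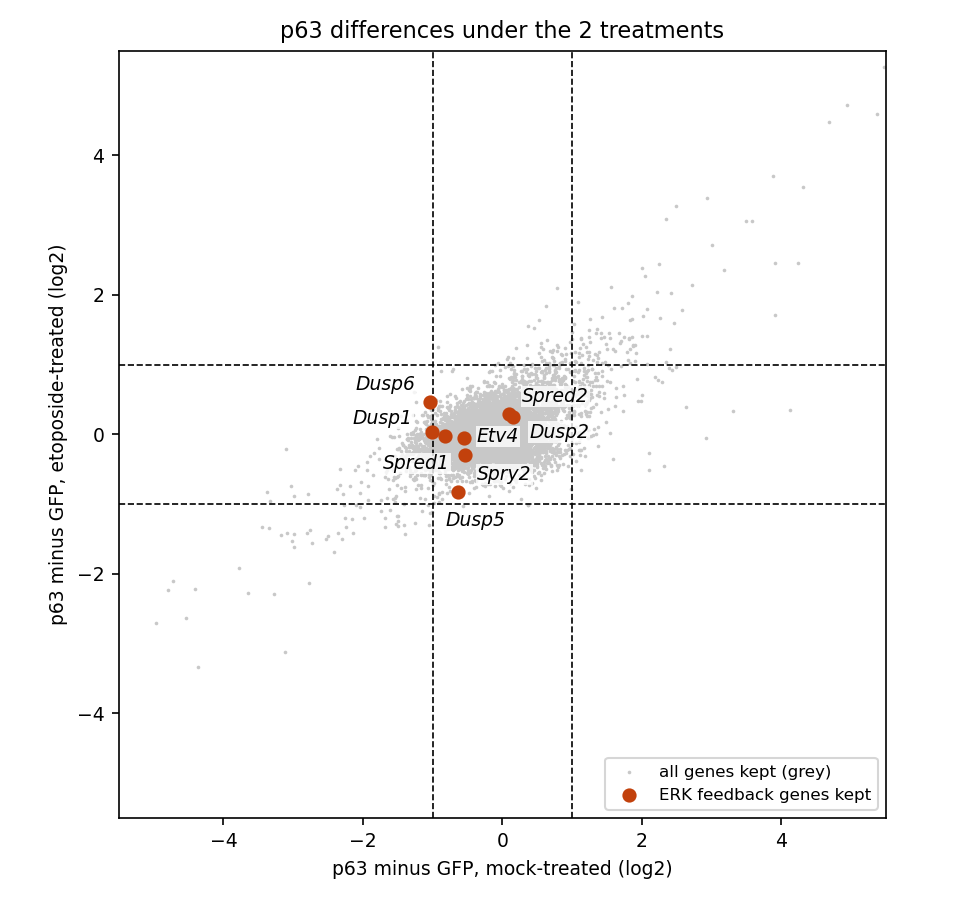
p63 minus GFP (log2) in mock-treated cells on the x axis and in etoposide-treated cells on the y axis, 1 point per gene; grey points are the 10698 genes kept, orange points the 8 ERK feedback genes kept, and dashed lines mark 1 and -1. Dusp6 and Dusp1 lie at -1.03 and -1.01 on the x axis with 0.46 and 0.03 on the y axis, and Dusp5 is the lowest member on the y axis at -0.83.

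The etoposide differences were then set against each other, p63 cells minus GFP cells. Dusp6 had 1.49 and Dusp1 1.05, so 2 of 8 members were called higher and 0 lower, against 2.84% and 1.09% of all genes kept, and 43 genes stood as high as Dusp6. Spred1 had 0.80, Etv4 0.50, Spry2 0.24, Spred2 0.19, Dusp2 0.11 and Dusp5 -0.19. The other probe set of Spred2 gave -0.06. The members' median was 0.37 and that of all genes kept 0.20, against 0.07 and -0.10 with arrays centred on the genes kept and 0.27 and 0.01 after cyclic loess. With arrays centred on the genes kept the values of Spry2, Spred2 and Dusp2 turn to -0.05, -0.11 and -0.19. These values come from the same 4 readings as the differences above and add no independent evidence. Dusp1 was at 0.77 after cyclic loess and 0.75 with arrays centred on the genes kept, and was not called there, while Dusp6 stayed called at 1.19 to 1.58.

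Scaling moved the background as well. Cyclic loess shifted the median p63 difference of all genes kept in mock-treated cells from -0.14 to 0.00. Of the genes called, 62.4% were higher after etoposide in GFP cells as deposited, against 47.8%, 74.0% and 69.4% with arrays centred on all named probe sets, centred on the genes kept, and after cyclic loess. The corresponding shares were 82.6%, 78.9%, 60.7% and 74.7% for etoposide in p63 cells, 39.2%, 31.4%, 66.9% and 58.2% for p63 in mock-treated cells, and 72.2%, 83.6%, 19.8% and 57.9% for the difference of the etoposide differences.

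Further genes of the pathway were examined as lists, which were chosen with earlier results of these data known. Other ERK-driven genes, of which 14 of 15 were kept, had a median etoposide difference of 0.62 with GFP and 1.19 with p63. Of the 14, 2 were called higher with GFP and 9 with p63, with 0 lower in either, and Fos and Lif in both; with arrays centred on the genes kept or after cyclic loess the counts were 3 and 7, and with arrays centred on all named probe sets 1 was lower with GFP. Fos, an immediate early gene and a subunit of AP-1, stood at 1.60 and 2.64 and passed the filter through its etoposide arrays alone. With its dim mock readings raised to the filter Fos was at 0.85 and 1.75, so its GFP call is lost there. Etv5, among those called with p63, went from 1.05 to 0.74 there once its dim mock reading was raised, and that call is lost too. Lif, a cytokine of the interleukin-6 family, stood at 1.79 and 1.59. In mock-treated cells 7 of the 14 were lower with p63 and the median was -1.13, against 1 of 14 and -0.12 in etoposide-treated cells. Of all genes kept, 3.76% were lower with p63 in mock-treated cells and 0.514% in etoposide-treated cells. After etoposide 3.52% of all genes kept were higher with GFP and 6.28% with p63. Ccnd1, which encodes cyclin D1, was lower under both treatments: it read 8.97, 9.74, 5.99 and 8.30, differences of -2.98 and -1.44. Several of these genes are early genes that other pathways also drive.

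The remaining MAP kinase phosphatases, Dusp7, Dusp8, Dusp9, Dusp10 and Dusp16, were all kept, with median etoposide differences of 0.45 and 0.56. Dusp7, a cytoplasmic phosphatase of ERK closely related to Dusp6, was the 1 of 5 called in both lines, at 1.03 and 2.01, and the first call was lost with arrays centred on all named probe sets. It read 7.99, 9.02, 7.62 and 9.62, and so had the same order of arrays as Dusp6. Other brakes on receptors and RAS, with 10 of 11 kept, had medians of -0.01 and 0.40, the first taking either sign under other scalings (-0.13 to 0.09). Of these 10, 0 were called in GFP cells and 2 were higher in p63 cells, Rasa2, a RAS GTPase-activating protein, at 1.13 and Errfi1, an inhibitor of the EGF receptor, at 1.04, where GFP cells gave 0.18 and 0.25. With arrays centred on the genes kept 0 of these were called, and after cyclic loess 1.

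The cascade itself, adaptors, RAS, RAF, MEK and their partners, showed 0 of 14 genes called in any of the 4 comparisons, with median etoposide differences of -0.18 and 0.01, the second turning to -0.02, -0.19 and -0.12 under the 3 other scalings. The remaining 7 of its 21 listed genes were not analysed here. Gab1, a docking protein, stood at 0.80 and 0.73 and Map2k1, which encodes MEK1, at -0.46 and -0.43. Of growth factor ligands 7 of 13 were kept, with medians of 0.12 (0.00 with arrays centred on all named probe sets) and 0.42. Ereg, which encodes the EGF receptor ligand epiregulin, was the 1 called in both lines, at 1.54 and 2.75, or 1.30 and 1.27 with its dim mock readings raised to the filter. In GFP cells 2 of the 7 were called higher and 1 lower, with Pdgfa, a platelet-derived growth factor, at 1.56 and Fgf7, a fibroblast growth factor, at -1.39, and in p63 cells 1 was higher and 0 lower. Under mock treatment 1 was higher with p63, Pdgfa at 1.20, and 2 were lower, Fgf7 at -1.92 and Ereg, whose call is lost once its readings are raised. Among receptor tyrosine kinases, with 8 of 10 kept and medians of -0.19 and -0.10, Fgfr2 was higher with p63 under both treatments, by 2.47 and 1.60, and stood at -0.56 and -1.43 for etoposide against mock. The 1 receptor called in GFP cells was Igf1r, the receptor of insulin-like growth factor, lower at -1.03, a call lost with arrays centred on the genes kept and after cyclic loess.

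**Figure D4:**
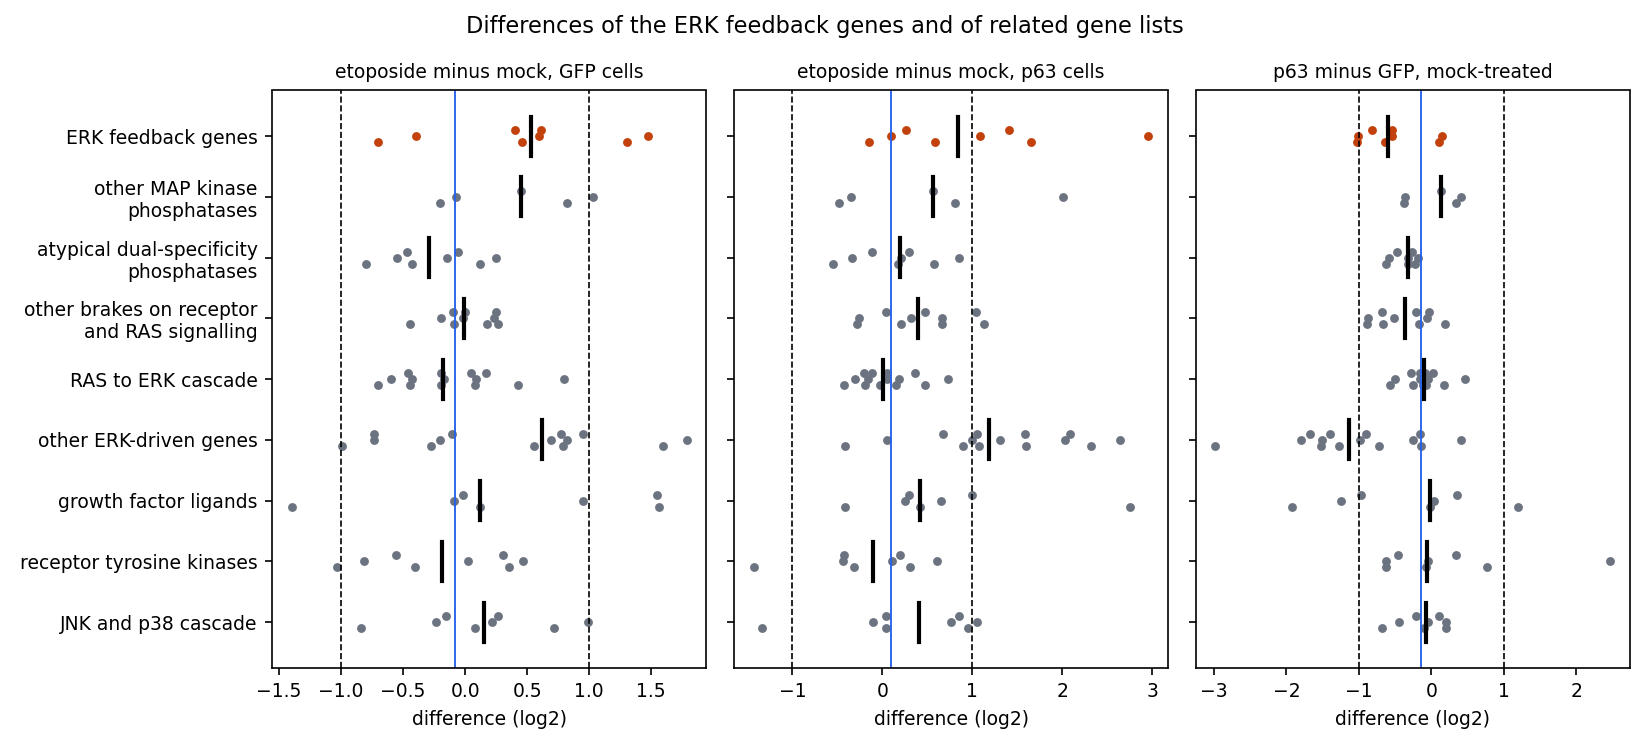
Differences (log2, x axis) of the 8 ERK feedback genes kept (orange) and of the kept genes of 8 related lists (grey), 1 point per gene, for etoposide in GFP cells, etoposide in p63 cells and p63 against GFP in mock-treated cells; black bars are list medians, the blue line is the median of all genes kept and dashed lines mark 1 and -1. The lists of ERK feedback genes and of other ERK-driven genes have medians of 0.84 and 1.19 after etoposide in p63 cells, and the RAS to ERK cascade 0.01.

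Genes with the most similar profile were sought over the 4 arrays by the Euclidean distance between signals after subtraction of each gene's mean. Closest to Dusp6, the member with the widest range, were Ereg at a distance of 0.39, Slc4a11, a membrane transporter of the bicarbonate transporter family, at 0.39 and Pigf, an enzyme of GPI anchor synthesis, at 0.48. Ereg read 5.63, 7.17, 4.38 and 7.14, its mock readings below the filter, Slc4a11 6.21, 8.13, 5.55 and 8.19, and Pigf 9.54, 10.8, 8.52 and 10.9. Slc4a11 and Pigf had their lowest reading in mock-treated p63 cells, as Dusp6 did. That reading of Slc4a11, 5.55, is below the filter. The mock readings of Ereg have no order, with a p63 difference of 0.00 once raised to the filter, so its distance to Dusp6 rests in part on dim signal. Closest to the median profile of the members kept were Txnrd1, a thioredoxin reductase, Pi4k2b, a phosphatidylinositol kinase, Irf2, an interferon regulatory factor, Pik3r4, a subunit of the class III phosphatidylinositol 3-kinase, and Xkr8, a phospholipid scramblase, at distances of 0.14 to 0.15. With 4 arrays such likeness is a description.

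**Figure D5:**
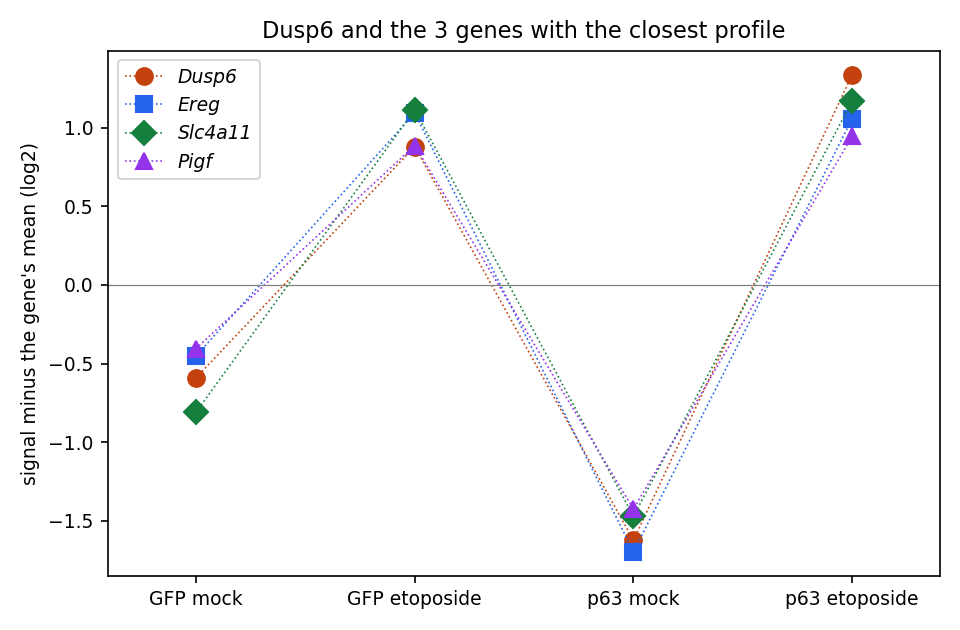
Signal minus the gene's own mean over the arrays (log2, y axis) on the 4 arrays (x axis) for Dusp6 (orange) and the 3 genes closest to it; each point is 1 array, and dotted lines join the points of a gene. Dusp6 lies lowest in mock-treated p63 cells, at -1.62, as do Pigf and Slc4a11. The mock readings of Ereg and the mock-treated p63 reading of Slc4a11 are below the brightness filter.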

How the data were processed

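Total RNA (Trizol) was turned into biotinylated cDNA with a NuGEN kit and read on Affymetrix Mouse Gene 1.0 ST arrays, per the labels. The deposited log2 values are RMA signals that the authors made in Expression Console, per the submitters' processing notes, whose version is not stated there. RMA is meant to give the arrays a shared intensity distribution, which would largely remove a shift common to most genes. The deposited signals still differed in spread. Their standard deviation over all probe sets was 2.39, 2.37, 2.28 and 2.38 in the order used above, lowest in mock-treated p63 cells.

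Of 35512 probe sets, 21789 had 1 symbol in a platform annotation of 2016, 1621 had several and 12102 were not listed, and 21698 of the 21789 were matched by Entrez identifier to current symbols (RefSeq, GRCm38.p6). A gene with several probe sets was represented by its brightest on average. Genes were kept at the 50th percentile of values. Differences were computed with pandas 2.3.3, and cyclic loess with limma 3.58.1. Calling was tested on simulated data, with known changes put on bright genes only. That test covers the calling step, and neither dim signal nor scaling. The members, lists and naming rule were chosen with earlier results of these data known. The rule names all members, list genes called in both pairs of an effect (otherwise the 2 with the largest etoposide differences) and the closest profiles. The promoters of Dusp1 and Dusp5, and Krt8, Krt19, Col1a1, Cd68, Pdgfa, Fgf7, Igf1r, Etv5, Myc and Map2k4, were added after their values were seen. Protein sequences were not used here.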

Additional observations from a re-analysis of the deposited data

Results flagged for a closer look

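Dusp6 and Dusp1 had p63 differences of opposite sign under the treatments. Dusp6 stood at -1.03 under mock treatment and 0.46 after etoposide, and Dusp1 at -1.01 and 0.0327. Among all genes kept, 0.757% had a p63 difference of at least 1 in size under mock treatment and the opposite sign after etoposide. The difference between the treatments was not tested, since each condition is 1 array. Under other scalings the etoposide value of Dusp1 lay between -0.05 and 0.06, so its sign is not settled, and that of Dusp6 between 0.38 and 0.48. The array of mock-treated p63 cells, which the mock values share, had the lowest median of the 4 and the most genes standing apart, and its part in these values was not tested.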

How the results depend on the processing

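Without replicates no array was left out. No paired analysis by replicate number was possible because the labels carry none; the 2 pairs of each effect are given side by side, and an additive fit over the 4 arrays, whose 1 residual degree of freedom is the difference of differences, was not run. Beside 7 alternatives, 1 more, centring on the genes kept, was chosen after seeing the data. Of 10 member differences that reached 1, 0 reversed under these and 5 were called under each that gave a value: etoposide in p63 cells for Dusp1, Dusp2 and Dusp6, etoposide in GFP cells for Dusp6, and the difference of the etoposide differences for Dusp6. At 1.5-fold, 5 members were called after etoposide in GFP cells (Spred1 lower), 4 lower with p63 under mock treatment and 1, Dusp5, lower after etoposide. With dim readings raised to the filter 1 member, Dusp6, was called higher after etoposide in GFP cells, against 2.70% of all genes kept. At the 75th percentile filter (7.82), which kept 4 members, 1 was called higher after etoposide in GFP cells and 2 in p63 cells. Of all genes kept at that filter, 3.96% and 7.79% were called higher. With arrays centred on the genes kept, and after cyclic loess, 0 members were called for p63 under mock treatment and 1, Dusp6, for the difference of the etoposide differences. Causes were not tested, except that the stricter filter leaves fewer members. Without a filter Dusp4 was also called lower with p63 under mock treatment, where 2.14% of all named genes were. Over all genes, calls for p63 under mock treatment were 259 higher and 402 lower as deposited, 408 and 202 centred on the genes kept, and 336 and 241 after cyclic loess. For the difference of the etoposide differences they were 304 and 117, 84 and 341, and 176 and 128, and without a filter 336 and 448. For etoposide in p63 cells they were 672 and 142, and 406 and 263 centred on the genes kept. At 1.5-fold they were 993 and 1014 for etoposide in GFP cells (377 and 227 at 2-fold), 1766 and 588 in p63 cells, 721 and 1720 for p63 under mock treatment, 525 and 200 after etoposide (148 and 55 at 2-fold), and 1783 and 529 for the difference of differences. Dim signal limits Dusp2, Dusp4 and Spry4.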

Other observations

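Kinases and phosphatases beside the ERK pathway gave further values. In the JNK and p38 cascade, with 8 of 10 listed genes kept, the median etoposide difference was 0.15 with GFP and 0.40 with p63, and 0 genes were called with GFP while 1 was higher and 1 lower with p63. Map2k3, a kinase that activates p38, stood just under the threshold in both, at 0.99 and 0.95, and was called higher with GFP when arrays were centred on the genes kept and after cyclic loess. After cyclic loess Map2k6 was called lower with GFP too, and the GFP median ran from 0.03 to 0.29 over these scalings and centring on all named probe sets. The gene called lower, Map2k6, which also activates p38, stood at -0.84 and -1.34, but only its reading in mock-treated p63 cells reached the filter, and with dim readings raised it was at 0.00 and -0.09. The gene called higher, Map2k4, which activates JNK and was picked out after its values were seen, stood at 0.71 and 1.05, and no JNK or p38 gene was called higher with p63 when arrays were centred on the genes kept or after cyclic loess.

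Atypical dual-specificity phosphatases, with 8 of 10 kept, had medians of -0.29 with GFP and 0.19 with p63 (0.00 with arrays centred on the genes kept), and 0 of 8 were called in any of the 4 comparisons. Dusp14 stood at -0.55 in either line, and Dusp3 at 0.25 and 0.86. Myc, an ERK-driven gene named after its values were seen, had the highest difference of the etoposide differences on its list, at 1.73. It read 10.8, 10.1, 9.03 and 10.0 in the order used above, with etoposide differences of -0.73 and 0.997, neither called.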
